A study of Mus musculus with 6 samples.

Results

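F-box proteins are the substrate receptors of SCF ubiquitin ligases, and the genes described here are those that the platform annotation names Fbxw, Fbxl or Fbxo followed by a number. A gene was taken where a probe set carries exactly 1 such symbol, and its brightest probe set by the mean over all 6 arrays stands for it. This gave 71 genes of 19937 measured, with 17 Fbxw, 18 Fbxl and 36 Fbxo symbols. Of these, 70 carry the name of an F-box protein gene, and Fbxl12os, the opposite-strand transcript of Fbxl12, met the naming rule but is no F-box protein gene. The members have 74 probe sets in all, and 3 members have more than 1. A further 2 probe sets carry several symbols of the rodent Fbxw cluster and were not used.

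Granulocytes of C57BL/6J mice were measured on 6 Affymetrix Mouse Gene 1.0 ST arrays, 3 labelled caffeine+ and 3 labelled caffeine-. Caffeine inhibits PI3K-like kinases, among them the kinase SMG1 of nonsense-mediated decay (NMD), the pathway that removes mRNAs with premature stop codons, and the series was designed to find transcripts that accumulate when NMD is blocked. In the protocol, cultures stood for 4 hours in 15 mM caffeine, were washed, and then stood for 4 hours in 2 µg/ml actinomycin D, which blocks transcription, with caffeine (caffeine+) or without it (caffeine-). By that account the caffeine- cells had also seen caffeine before the wash, although their label reads as untreated. The labels do not say which animals or cultures gave the replicates, so the spread behind each p-value may be technical. That spread is the one among 3 arrays of a group, drawn by limma toward that of genes of like brightness.

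An SCF ligase joins a cullin, CUL1, to the RING protein RBX1, which brings in the ubiquitin-charged enzyme, and to the adaptor SKP1, which holds the F-box of the receptor. The receptor then binds the protein to be tagged: Fbxw proteins through WD40 repeats, Fbxl proteins through leucine-rich repeats, and Fbxo proteins through other domains. The cullin works when the small modifier NEDD8 is attached to it, the COP9 signalosome takes NEDD8 off, and CAND1 helps to exchange one receptor for another. Several F-box receptors set the level of cell cycle and survival proteins, among them cyclin E, MYC and MCL1, which FBXW7 targets.

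The values are the authors' log2 values, and each difference below is caffeine+ minus caffeine- on that scale, from 3 arrays in each group. Each standard error (SE) is the moderated one of limma, which draws a gene's own variance toward that of genes of like brightness. Rise, fall and moved name only the direction of this difference. All 6 arrays followed actinomycin D, so a change over time was not measured. A gene passed the test at a limma adjusted p under 0.05 (Benjamini-Hochberg over 19937 genes, two-sided). Across probe sets, 2 arrays of the same group had r = 0.986 to 0.992 and arrays of different groups had 0.959 to 0.965. All 18 granulocyte markers were measured, among them the granule gene Ngp (10.97, 10.80 and 10.76 in caffeine+, 11.69, 11.78 and 11.59 in caffeine-) and S100a9 (11.89, 11.90 and 11.83 in caffeine+, 12.19, 12.18 and 12.18 in caffeine-). Of these 18 markers 17 were lower in caffeine+ and none was higher, and the log2 of their summed level lay between 14.42 and 14.46 in caffeine+ against 14.94 and 15.02 in caffeine-. Of 9 monocyte and macrophage markers 7 were lower and 1 higher (summed level 12.39 to 12.45 in caffeine+, 12.71 to 12.81 in caffeine-), of 5 eosinophil, basophil and mast cell markers 3 were lower (12.20 to 12.23 in caffeine+, 12.89 to 13.05 in caffeine-), and all 4 dendritic cell markers were lower (9.37 to 9.40 in caffeine+, 9.76 to 9.89 in caffeine-). None of 6 T and NK cell markers passed the limma test (1, Cd3d, at an unadjusted p under 0.05), and 1 of 4 B cell, 1 of 3 erythroid and 1 of 4 megakaryocyte markers were lower. The part of these shifts in the F-box values was not tested, and in such bulk RNA fewer cells of a type and less RNA per cell cannot be told apart.

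Of the 71 members, 18 were higher in caffeine+, 12 were lower and 41 did not pass. Among all genes 16.2% were higher and 21.7% lower, so the members' 25.4% higher lies above that background and their 16.9% lower lies below it. With arrays centred on their medians the shares lower came close, at 16.9% of members and 18.8% of all genes, and after quantile normalization they were 19.7% and 21.8%. By at least 2-fold, 6 members were higher and 4 lower (8.45% and 5.63%, against 2.63% and 3.15% of all genes). Without Fbxl12os, which is no F-box protein gene, 11 members were lower (15.7%), 3 of them by at least 2-fold (4.29%). The median log2 difference was 0.05 over the members and -0.04 over all genes. The 30 members that passed all had groups that did not overlap, as did 6 members that did not pass, 36 of 71 in all, where 45.9% of all genes had groups that did not overlap. Among all genes that passed, 3229 higher and 4325 lower, 7407 had groups that did not overlap, so this goes with passing the test.

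**Figure D1:**
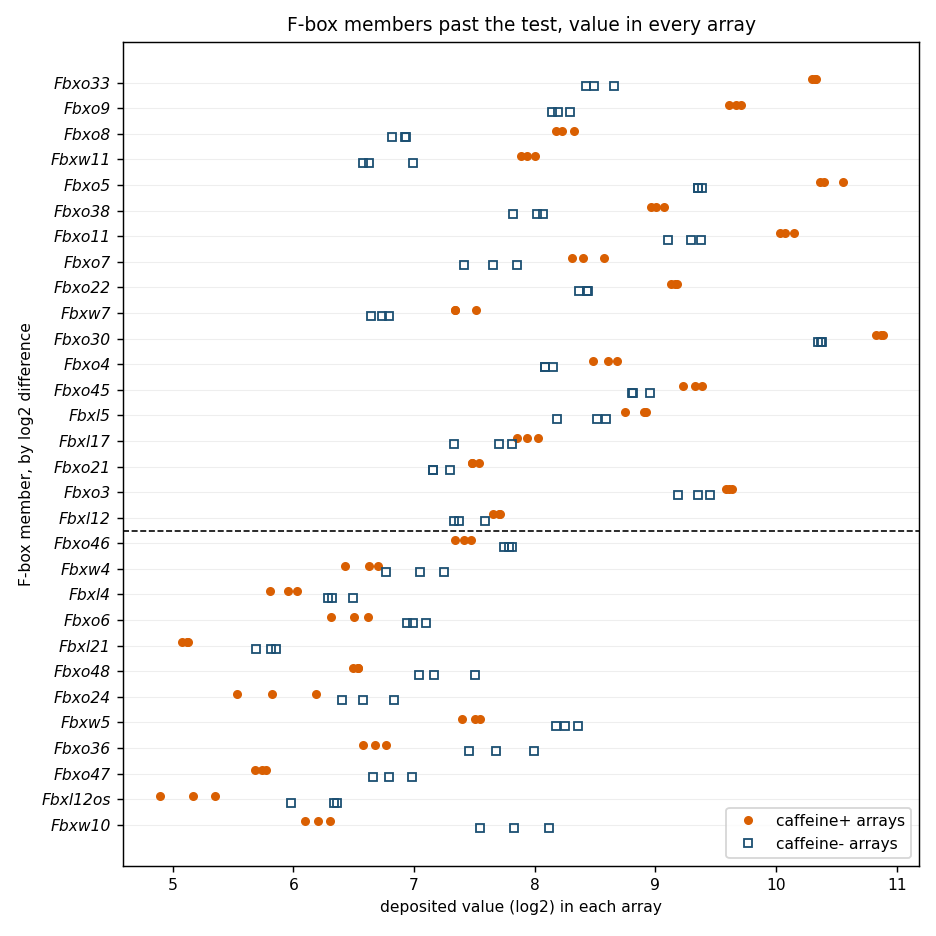
Deposited log2 value (horizontal axis) of each of the 30 F-box members that passed the test, ordered by log2 difference (vertical axis), with filled circles for the 3 caffeine+ arrays and open squares for the 3 caffeine- arrays. The 18 members above the dashed line have all caffeine+ arrays above all caffeine- arrays, and the 12 below it have the opposite order.

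The largest rise was that of Fbxo33, which in human cells brings the Y-box protein YBX1 to the ligase. It had log2 values of 10.30, 10.32 and 10.33 in caffeine+, against 8.49, 8.65 and 8.43 in caffeine-. All 3 caffeine+ arrays lay far above the caffeine- arrays, and the difference was 3.47-fold (log2 difference 1.79 ± 0.07 SE, limma adjusted p = 7.3e-11). Fbxo9, whose human protein marks the PI3K-like kinase chaperones TEL2 and TTI1 for degradation, had 9.67, 9.71 and 9.61 in caffeine+ and 8.29, 8.20 and 8.14 in caffeine-, 2.73-fold higher (1.45 ± 0.07 SE). Fbxo8, which carries a Sec7 domain like the activators of ARF GTPases, had 8.33, 8.23 and 8.17 in caffeine+ and 6.82, 6.93 and 6.92 in caffeine-, 2.55-fold higher (1.35 ± 0.09 SE). In each of these 3 genes the gap between the groups was several times the spread within either.

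The promoter windows of the 4 members with the largest rises are shown because the largest differences in the family are theirs in that direction. They are 300 bases each and span an annotated start, from RefSeq on build GRCm38.p6, written 5′ to 3′ on the strand of the gene, with matches of 3 short motifs in capitals on either strand: TGACG, the core of the cAMP response element, CCGGAAG, an ETS site, and GCCATNTTG, a YY1 site. Fbxo33 (chr12:59219434-59219733, minus strand) holds none of them, Fbxo9 (chr9:78109016-78109315, minus strand, 1 of its 2 windows) holds TGACG 1 time, Fbxo8 (chr8:56550904-56551203, plus strand) holds TGACG 2 times, 1 of them directly beside CCGGAAG, and Fbxw11 (chr11:32642305-32642604, plus strand) holds CCGGAAG 1 time.
Fbxo33: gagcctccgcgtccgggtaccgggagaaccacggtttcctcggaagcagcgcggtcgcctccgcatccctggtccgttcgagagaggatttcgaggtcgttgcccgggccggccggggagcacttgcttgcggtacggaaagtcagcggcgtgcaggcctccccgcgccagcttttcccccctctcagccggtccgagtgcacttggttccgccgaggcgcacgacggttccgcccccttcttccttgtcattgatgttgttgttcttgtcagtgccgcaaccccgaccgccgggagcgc
Fbxo9: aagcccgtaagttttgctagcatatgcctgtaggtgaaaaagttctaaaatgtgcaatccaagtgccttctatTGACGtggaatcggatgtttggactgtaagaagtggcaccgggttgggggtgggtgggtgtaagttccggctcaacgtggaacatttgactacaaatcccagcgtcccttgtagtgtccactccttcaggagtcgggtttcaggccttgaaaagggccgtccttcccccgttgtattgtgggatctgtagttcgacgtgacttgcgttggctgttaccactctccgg
Fbxo8: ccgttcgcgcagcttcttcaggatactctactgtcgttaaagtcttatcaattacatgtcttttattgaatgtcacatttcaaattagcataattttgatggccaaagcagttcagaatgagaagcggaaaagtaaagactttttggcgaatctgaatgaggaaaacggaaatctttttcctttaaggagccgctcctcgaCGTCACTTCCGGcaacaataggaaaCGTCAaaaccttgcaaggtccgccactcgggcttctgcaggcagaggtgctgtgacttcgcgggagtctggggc
Fbxw11: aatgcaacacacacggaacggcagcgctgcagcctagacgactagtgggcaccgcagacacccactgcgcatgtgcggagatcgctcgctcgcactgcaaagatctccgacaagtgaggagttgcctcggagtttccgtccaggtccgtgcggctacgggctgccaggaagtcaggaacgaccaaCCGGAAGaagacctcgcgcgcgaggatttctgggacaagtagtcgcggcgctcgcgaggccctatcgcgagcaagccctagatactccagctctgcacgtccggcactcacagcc

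Windows were found for 53 members. TGACG was in a window of 20 of them (37.7%), against 23% of the 27025 genes in the table, with 5 among 14 members that were higher, 2 among 8 that were lower and 13 among 31 that did not pass. The whole element TGACGTCA, which contains TGACG, was in the window of 1 member, Fbxw9 (1.89%, against 2.03% of genes), and Fbxw9 did not pass the test. CCGGAAG was in a window of 13 members (24.5%, against 9.93% of genes), 4 among the higher, 4 among the lower and 5 among the others. GCCATNTTG was in a window of 5 members (9.43%, against 2.9% of genes), 1 higher, 1 lower and 3 others. A gene counts once over all its windows, and the 27025 genes had 32851 windows. Some members have several windows, and members were not matched to other genes on that number or on gene type. A match is a run of letters and not a measured binding site.

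Among members that act on the cell cycle and on signalling, 5 of 8 were higher and 1 was lower (62.5% and 12.5%), against 16.2% and 21.7% of all genes. This and the other groupings by role were made after the values were seen, so their counts are descriptions. The mean values of these 8 members had a median of 7.58. Above the median of all genes, 6.68, 29.5% of genes were higher and 33% lower. Fbxw11, or beta-TrCP2, targets the NF-kappaB inhibitor and beta-catenin, and had 7.887, 8.001 and 7.934 in caffeine+ against 6.627, 6.578 and 6.990 in caffeine-. It was 2.31-fold higher (log2 difference 1.21 ± 0.11 SE, limma adjusted p = 2.1e-07). Its close relative Btrc, or beta-TrCP1, lies outside the naming rule and had 7.91, 7.80 and 7.95 in caffeine+ and 7.92, 7.83 and 7.78 in caffeine-, which overlap. Its log2 difference was 0.04 with a 95% interval of -0.14 to 0.22, and that of Fbxw11 had an interval of 0.98 to 1.44. The difference between the 2 genes was not itself tested.

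Fbxo5, or Emi1, inhibits the anaphase-promoting complex and so lets mitotic cyclins build up. It had 10.36, 10.55 and 10.40 in caffeine+ against 9.39, 9.35 and 9.35 in caffeine-, 2.11-fold higher (1.08 ± 0.07 SE, limma adjusted p = 3.3e-09), with no overlap. Fbxo43, or Emi2, which holds the complex in the egg, differed by -0.22 ± 0.13 SE and did not pass (limma adjusted p = 0.24). Fbxw7 is a tumour suppressor whose receptor binds MYC, cyclin E, MCL1, JUN and NOTCH1. Its brightest probe set had 7.34, 7.51 and 7.34 in caffeine+ and 6.79, 6.73 and 6.64 in caffeine-, 1.60-fold higher (0.68 ± 0.10 SE). That probe set is annotated to accessions other than RefSeq transcripts, and the second Fbxw7 probe set, annotated to RefSeq transcripts, was also higher, by 0.42 ± 0.10 SE (limma adjusted p = 0.0044 with every probe set tested).

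Fbxo4, a receptor for cyclin D1, had 8.48, 8.68 and 8.61 in caffeine+ against 8.15, 8.09 and 8.08 in caffeine-, 1.40-fold higher (0.48 ± 0.08 SE). Fbxo31, another receptor for cyclin D1, had 7.67, 7.63 and 7.85 in caffeine+ and 7.50, 7.35 and 7.60 in caffeine-, without overlap but short of the threshold (0.24 ± 0.10 SE, limma adjusted p = 0.066). Its dimmer probe set differed by 0.51 ± 0.11 SE and passed (limma adjusted p = 0.0019 with every probe set tested), so the 2 probe sets of Fbxo31 disagree in their call. Fbxl12, a receptor for the CDK inhibitor p57 in human cells, had 7.65, 7.71 and 7.71 in caffeine+ against 7.58, 7.38 and 7.33 in caffeine- (0.26 ± 0.09 SE, limma adjusted p = 0.037). This call was lost when any one of 5 of the 6 arrays was left out (limma adjusted p 0.075 to 0.11), the exception being caffeine- array 1, and the span of Fbxl12 overlaps that of Ubl5, whose own probe set fell by 0.52 on the log2 scale. Fbxl12os, the transcript from the opposite strand, went the other way, with 4.89, 5.35 and 5.17 in caffeine+ and 6.34, 6.36 and 5.98 in caffeine- (-1.09 ± 0.14 SE, 2.13-fold lower). Fbxw5, which in human cells acts on the mTOR inhibitor TSC2 and on the centriole protein SAS-6, was the member of this group that fell, with 7.40, 7.55 and 7.50 in caffeine+ and 8.17, 8.25 and 8.36 in caffeine- (-0.78 ± 0.09 SE, 1.72-fold lower, limma adjusted p = 2e-06).

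Receptors of immune substrates had 3 of 5 higher and none lower (60% and 0%, against 16.2% and 21.7% of all genes). All 3 that were higher lie in the brightest 25% of all genes, where 41.1% of genes were higher. Fbxo38 is known for the removal of the receptor PD-1 in T cells and had 9.01, 9.07 and 8.96 in caffeine+ against 8.02, 8.07 and 7.82 in caffeine-, 2.06-fold higher (1.05 ± 0.08 SE). Fbxo11, the receptor for BCL6, had 10.03, 10.15 and 10.07 in caffeine+ and 9.38, 9.29 and 9.10 in caffeine-, 1.78-fold higher (0.83 ± 0.08 SE). The reference span of Fbxo11 overlaps that of the mismatch repair gene Msh6, whose own probe set was higher by 1.40 ± 0.07 SE, and the part of one in the other was not tested. Fbxo3, which in human cells drives loss of FBXL2, had 9.61, 9.63 and 9.59 in caffeine+ and 9.45, 9.36 and 9.19 in caffeine-, a small gap of 1.21-fold (0.28 ± 0.07 SE, limma adjusted p = 0.0064). Fbxl2 itself differed by -0.03 ± 0.11 SE and Fbxo10, a receptor for BCL2, by 0.11 ± 0.12 SE, and neither passed.

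Members tied to iron, mitochondria and energy split, with 2 higher and 2 lower of 4 (50% each, against 16.2% and 21.7% of all genes). Fbxo7, a parkinsonism gene whose protein also binds a proteasome regulator, had 8.57, 8.40 and 8.31 in caffeine+ against 7.85, 7.65 and 7.41 in caffeine-, 1.73-fold higher (0.79 ± 0.11 SE). Fbxl5, the iron sensor that targets the iron regulatory protein IRP2, had 8.92, 8.91 and 8.75 in caffeine+ and 8.59, 8.52 and 8.19 in caffeine-, 1.35-fold higher (0.43 ± 0.10 SE, limma adjusted p = 0.0024). Fbxl4, a mitochondrial protein whose loss depletes mitochondrial DNA in humans, fell by 0.44 on the log2 scale, with 5.81, 6.03 and 5.95 in caffeine+ and 6.49, 6.29 and 6.32 in caffeine-. Fbxo48, linked to the energy sensor AMPK in human cells, had 6.53, 6.54 and 6.49 in caffeine+ and 7.16, 7.50 and 7.04 in caffeine- (-0.71 ± 0.12 SE, 1.64-fold lower). The groups did not overlap in any of these 4 genes, as in every member and nearly every gene that passed.

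Fbxo30, a receptor that takes part in muscle wasting, had the brightest probe set of the members, with 10.87, 10.83 and 10.89 in caffeine+ against 10.38, 10.37 and 10.35 in caffeine-. It was 1.41-fold higher (0.49 ± 0.05 SE, limma adjusted p = 1.3e-06). The other muscle receptors did not pass: Fbxo32, or atrogin-1, had 6.64, 6.80 and 6.62 in caffeine+ and 6.93, 6.69 and 7.00 in caffeine-, which overlap (-0.19 ± 0.11 SE, limma adjusted p = 0.20), and Fbxo40, the muscle receptor for the insulin receptor substrate IRS1, differed by -0.22 ± 0.12 SE. Fbxo22, which targets the histone demethylase KDM4A, had 9.13, 9.18 and 9.16 in caffeine+ and 8.44, 8.44 and 8.37 in caffeine-, 1.67-fold higher (0.74 ± 0.07 SE, limma adjusted p = 3.6e-07). Fbxo45, a synaptic receptor that works with the ligase PAM, had 9.33, 9.39 and 9.23 in caffeine+ and 8.81, 8.96 and 8.82 in caffeine-, 1.37-fold higher (0.45 ± 0.07 SE). Of the other nervous system members, Fbxo41 (0.04 ± 0.10 SE) and Fbxl16 (0.20 ± 0.10 SE) did not pass.

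Of the remaining rises, Fbxo21 had 7.48, 7.48 and 7.54 in caffeine+ against 7.30, 7.16 and 7.16 in caffeine- (0.29 ± 0.09 SE, limma adjusted p = 0.014). Fbxl17, which checks the pairing of BTB domain proteins, had 7.93, 7.85 and 8.02 in caffeine+ against 7.81, 7.71 and 7.33 in caffeine- (0.32 ± 0.11 SE, limma adjusted p = 0.033). The lowest caffeine+ array of Fbxl17 was close to the highest caffeine- array. Its call was lost without caffeine- array 3 (0.18, limma adjusted p = 0.14), without caffeine+ array 3 (0.12) or 1 (0.079), and without the intensity trend (0.060).

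**Figure D2:**
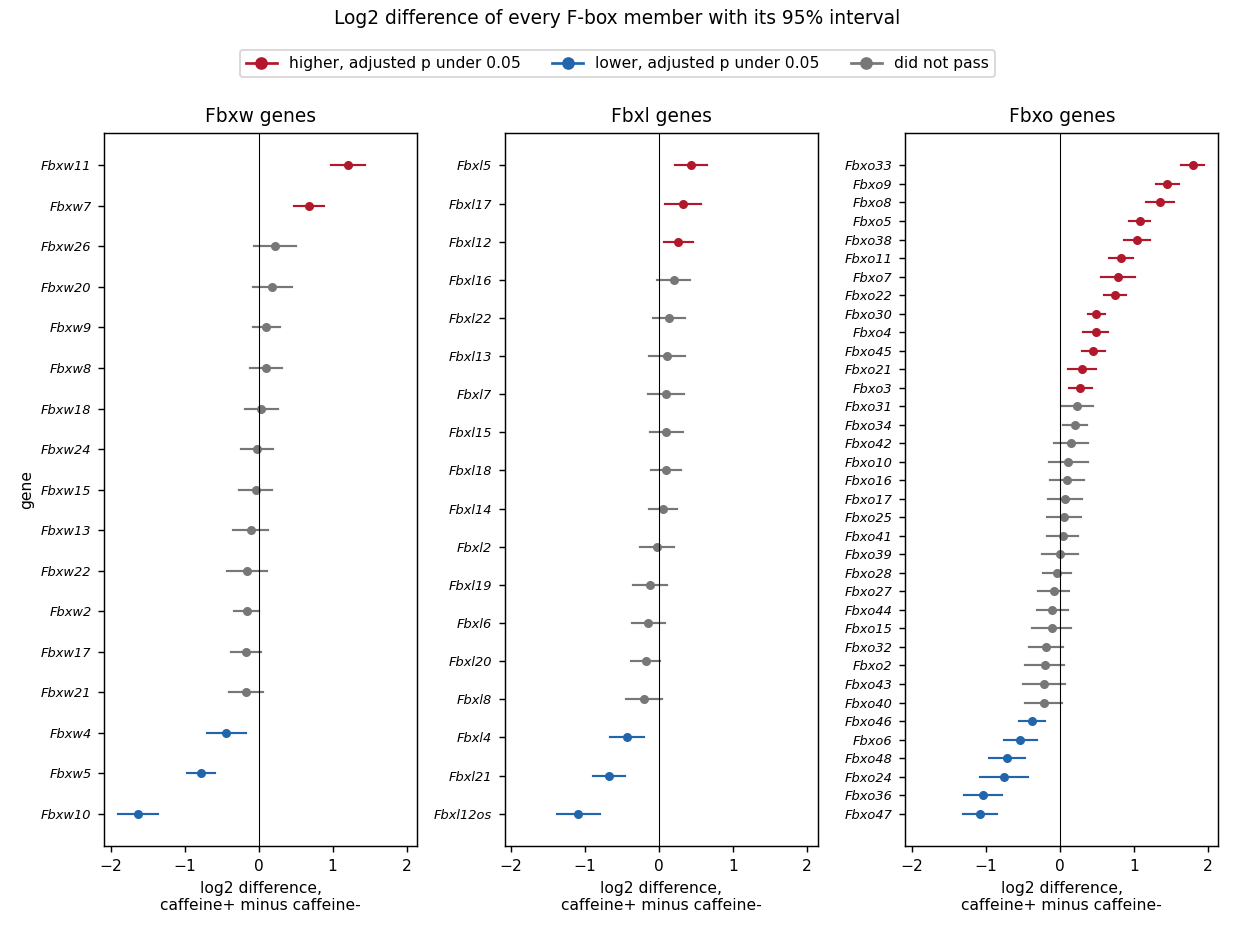
Log2 difference, caffeine+ minus caffeine- (horizontal axis), of each of the 71 members (vertical axis), in panels of 17 Fbxw, 18 Fbxl and 36 Fbxo symbols, with lines for the 95% interval from limma. Red marks members that were higher, blue those that were lower and grey those that did not pass: the Fbxo panel holds 13 of the 18 rises.

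The subfamilies held different counts. Of 36 Fbxo genes 13 were higher and 6 lower (36.1% and 16.7%, against 16.2% and 21.7% of all genes), with a median of 0.08. Of 18 Fbxl symbols 3 were higher and 3 lower (16.7% each). The highest difference among them was 0.43, so none was 2-fold higher. Without Fbxl12os, 2 Fbxl genes were lower and none differed by 2-fold in either direction. Of 17 Fbxw genes 2 were higher, Fbxw11 and Fbxw7, and 3 lower (11.8% and 17.6%). Whether the subfamilies differ was not tested.

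The largest fall was that of Fbxw10, a WD40 member. It had 6.21, 6.31 and 6.09 in caffeine+, against 8.11, 7.83 and 7.55 in caffeine-. The caffeine- arrays spread more widely than the caffeine+ arrays, and the groups lay apart by more than that spread (-1.63 ± 0.13 SE, 3.09-fold lower, limma adjusted p = 4e-08). Fbxo47, a gene of the mouse germ line needed in meiosis, had 5.68, 5.74 and 5.78 in caffeine+ and 6.98, 6.79 and 6.66 in caffeine-, 2.11-fold lower (-1.08 ± 0.11 SE). Fbxo36 had 6.672, 6.769 and 6.580 in caffeine+ and 7.454, 7.996 and 7.682 in caffeine-, 2.05-fold lower (-1.04 ± 0.12 SE). Its span overlaps that of the ubiquitin ligase gene Trip12, whose own probe set moved the other way, by 0.35 ± 0.05 SE.

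Fbxo24, a gene of the sperm lineage, had 5.82, 6.19 and 5.53 in caffeine+ and 6.84, 6.40 and 6.58 in caffeine-. It had the largest SE among the falls, and was 1.69-fold lower (-0.76 ± 0.15 SE, limma adjusted p = 0.00069). Fbxl21, a receptor for cryptochromes of the circadian clock, had 5.12, 5.08 and 5.13 in caffeine+ and 5.85, 5.69 and 5.82 in caffeine-, 1.60-fold lower (-0.68 ± 0.10 SE), and the overlapping gene Lect2 also fell, by 0.79 on the log2 scale. The mean values of Fbxo47, Fbxo24 and Fbxl21 were 6.27, 6.23 and 5.45, below the median of all genes, 6.68. Whether these transcripts were detected was not tested. Fbxo6 had 6.50, 6.61 and 6.31 in caffeine+ and 7.10, 6.94 and 6.99 in caffeine- (-0.54 ± 0.10 SE, 1.45-fold lower). Fbxo6 is a receptor for N-linked sugars of misfolded glycoproteins, and the 1 that fell of 5 related members (20%, against 21.7% of all genes). Whether all 5 bind sugars was not examined here. Fbxo2, Fbxo17, Fbxo27 and Fbxo44 did not pass, with differences between -0.21 and 0.06. Fbxw4, or dactylin, known from limb development, had 6.63, 6.43 and 6.70 in caffeine+ and 7.05, 7.25 and 6.77 in caffeine- (-0.44 ± 0.12 SE, limma adjusted p = 0.0093). That call was lost without caffeine+ array 2 (limma adjusted p = 0.054) or caffeine- array 2 (0.059), and the overlapping gene Dpcd fell by 0.45. Fbxo46 had 7.34, 7.42 and 7.47 in caffeine+ and 7.79, 7.75 and 7.81 in caffeine- (-0.37 ± 0.08 SE). Other members that passed overlap protein-coding genes that did not: Syn3 with Fbxo7 (-0.16 ± 0.10 SE), Nrg4 with Fbxo22 (-0.14 ± 0.12 SE), C8g with Fbxw5 (-0.12 ± 0.10 SE) and 4931422A03Rik with Fbxo3 (-0.02 ± 0.10 SE).

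Some bright members did not pass. Fbxw2, a WD40 receptor, had 9.07, 9.26 and 9.17 in caffeine+ and 9.47, 9.29 and 9.23 in caffeine-, with a 95% interval of -0.33 to 0.01, and it passed as lower after quantile normalization (-0.26, limma adjusted p = 0.0050) and without caffeine- array 3 (-0.21, limma adjusted p = 0.037). Fbxl20, which acts on the lipid kinase VPS34, had 8.92, 8.93 and 8.72 in caffeine+ and 9.23, 8.99 and 8.89 in caffeine-, which overlap. Fbxo28 had 8.75, 8.72 and 8.48 in caffeine+ and 8.63, 8.78 and 8.65 in caffeine-, with an interval of -0.22 to 0.15. Fbxo34 had 8.27, 8.18 and 8.17 in caffeine+ and 7.97, 8.02 and 8.02 in caffeine-, which do not overlap, and lay at the threshold (0.20 ± 0.08 SE, limma adjusted p = 0.052).

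The Fbxw genes of the rodent cluster on chromosome 9, a tandem family known for expression in oocytes, were dim. None of 8 measured members passed the limma test (none at an unadjusted p under 0.05), with differences between -0.17 and 0.22 and mean log2 values between 3.09 and 4.75. These genes are near copies of each other, so a probe set may take signal from several. Fbxw17, on chromosome 13, had a mean of 6.70 and did not pass either (-0.17 ± 0.10 SE). The germ line and early embryo members Fbxo15 and Fbxo39 differed without passing, at -0.11 ± 0.12 SE and 0.00 ± 0.11 SE.

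**Figure D3:**
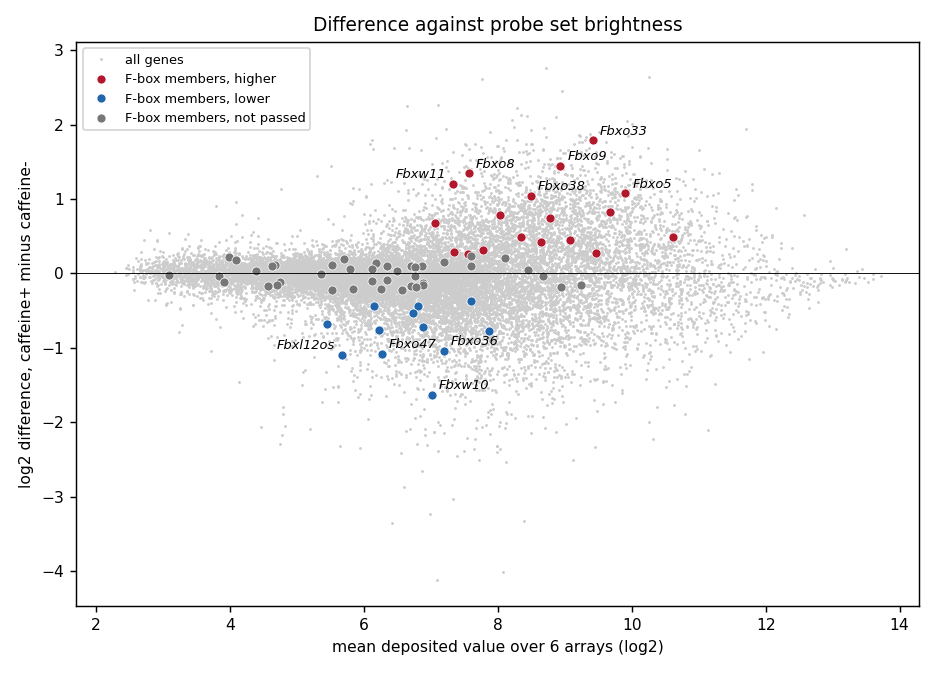
Log2 difference, caffeine+ minus caffeine- (vertical axis), against the mean deposited log2 value over 6 arrays (horizontal axis), with small grey points for all 19937 genes and large points for the 71 F-box members, coloured by call. The 18 red members lie at mean values from 7.06 to 10.62 and the 12 blue ones from 5.45 to 7.87.

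The calls went with the brightness of the probe set, which depends on its probes as well as on the transcript and ranks no gene against another. All 18 members that were higher had mean values over the 6 arrays of 7.06 or more, above the median of all genes, 6.68. Above that median 18 of 41 members were higher and 7 lower (43.9% and 17.1%), against 29.5% and 33% of all genes there. At or below it none of 30 members was higher by limma (none at an unadjusted p under 0.05) and 5 were lower (16.7%), against 2.87% higher and 10.3% lower of all genes. In the brightest 25% of all genes, a limit set after the values were seen, 12 of 17 members were higher and none lower by limma (none at an unadjusted p under 0.05), against 41.1% and 33.4% of all genes there. Across the 71 members the difference correlated with mean value at r = 0.40 (Pearson) and rho = 0.43 (Spearman), and across all 19937 genes at r = 0.07 and rho = 0.02. These correlations describe genes that share the same 6 arrays.

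The reference span of the gene, introns included, had a median of 32.4 kb in the 18 members that were higher, 17 kb in the 12 that were lower and 24.9 kb in the 41 that did not pass, against 17.7 kb over all genes. The ranges overlapped widely, with 6.31 to 458 kb for the higher members and 3.55 to 82.3 kb for the lower ones. Across members the difference correlated with the log10 of span at r = 0.19, against 0.16 across 19918 genes.

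**Figure D4:**
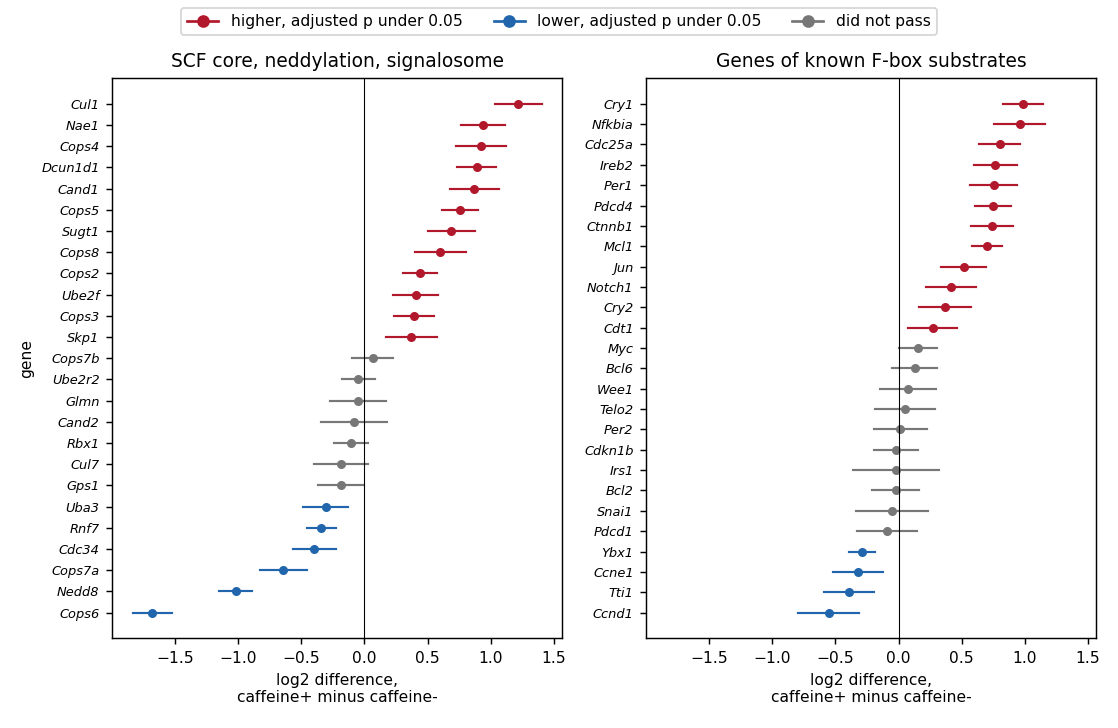
Log2 difference, caffeine+ minus caffeine- (horizontal axis), with its 95% interval, for 25 genes of the SCF core, of neddylation and of the COP9 signalosome on the left and for 26 genes of known F-box substrates on the right (vertical axes), coloured by call. On the left Cul1 is the highest and Cops6 the lowest, and on the right Cry1 is the highest.

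The partners of the F-box receptors moved in both directions. Of 25 measured genes of the SCF core, the neddylation enzymes and the COP9 signalosome, 12 were higher and 6 lower, with a median of 0.06. These are 48% and 24%, against 16.2% and 21.7% of all genes. The 25 genes are bright, with a median mean value of 9.09, and in the brightest 25% of all genes 41.1% were higher and 33.4% lower. The scaffold gene Cul1 had 10.36, 10.42 and 10.29 in caffeine+ against 9.28, 9.23 and 8.91 in caffeine-, 2.32-fold higher (1.22 ± 0.09 SE, limma adjusted p = 1.8e-08). Nedd8 itself had 10.02, 9.98 and 10.15 in caffeine+ and 11.12, 11.09 and 11.00 in caffeine-, 2.03-fold lower (-1.02 ± 0.06 SE). The signalosome subunit gene Cops6 had 7.78, 7.86 and 7.80 in caffeine+ and 9.52, 9.46 and 9.51 in caffeine-, 3.21-fold lower (-1.68 ± 0.07 SE), and Dcun1d1, which helps to load NEDD8 onto cullins, was 1.85-fold higher (0.89 ± 0.07 SE). The adaptor gene Skp1 was 1.29-fold higher (0.37 ± 0.10 SE), and the RING subunit gene Rbx1 did not pass (-0.11 ± 0.06 SE). Within the signalosome, Cops2, Cops3, Cops4, Cops5 and Cops8 were higher, by 0.39 to 0.92, Cops6 and Cops7a were lower, and Cops7b and Gps1 did not pass. Gps1 and Rbx1 have 2 probe sets each and were read from the brighter.

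Among 8 F-box genes that carry other names, none was higher by limma and 1, Lrrc29, was lower (-0.53 ± 0.11 SE, 1 of 8 at an unadjusted p under 0.05). The shares over all genes were 16.2% higher and 21.7% lower. Skp2, the receptor for the CDK inhibitor p27, differed by 0.09 ± 0.11 SE, and Kdm2b, a histone demethylase with an F-box, by 0.09 ± 0.10 SE.

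Genes of 26 known substrates of F-box receptors had 12 higher and 4 lower (46.2% and 15.4%, against 16.2% and 21.7% of all genes), with a median of 0.14. Their mean values had a median of 7.78, and above the median of all genes 29.5% of genes were higher and 33% lower. These are mRNA values, and the arrays do not measure the proteins that the receptors bind. Cry1, a substrate of FBXL21, was 1.98-fold higher (0.99 ± 0.07 SE), Mcl1, a substrate of FBXW7, 1.63-fold higher (0.70 ± 0.06 SE), Pdcd4, a substrate of beta-TrCP, 1.68-fold higher (0.75 ± 0.07 SE), and Cdc25a, another, 1.74-fold higher (0.80 ± 0.08 SE). Of the other FBXW7 substrates, Jun (0.51 ± 0.08 SE) and Notch1 (0.42 ± 0.09 SE) were higher, Ccne1, a gene of cyclin E, was lower (-0.32 ± 0.09 SE, limma adjusted p = 0.010), and Myc did not pass (0.15 ± 0.07 SE, limma adjusted p = 0.11). Beside their receptors, Nfkbia and Ctnnb1 (substrates of FBXW11) differed by 0.96 ± 0.09 SE and 0.74 ± 0.08 SE, Ireb2 (of FBXL5) by 0.77 ± 0.08 SE, Tti1 and Telo2 (of FBXO9) by -0.39 ± 0.09 SE and 0.05 ± 0.11 SE, Ybx1 (of FBXO33) by -0.29 ± 0.05 SE, and Bcl6 (of FBXO11) by 0.13 ± 0.08 SE. Of these 7, Telo2 and Bcl6 did not pass. Ybx1 has 2 probe sets, and the value given is that of the brighter. Ccnd1, the gene of cyclin D1, was 1.47-fold lower (-0.55 ± 0.11 SE).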

How the data were processed

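The 6 samples were hybridised to Affymetrix Mouse Gene 1.0 ST arrays after biotin labelling of 300 ng of total RNA each, per the labels' protocols. The deposited values cover 34760 probe sets and, ranging from 1.90 to 13.98, were taken as log2 values normalized by the authors, a unit read from their range. No source used here names the summarization or normalization. Detection p-values were not used, and the number of arrays limits the precision. No depth applies to arrays. Symbols came from the platform annotation (21640 probe sets with 1 gene symbol, 1321 with several, 11799 without), which gave 19937 genes at the brightest probe set each. Gene identifiers of 21553 probe sets were found in the RefSeq table of GRCm38.p6, used for spans, overlaps and promoters. Its coordinates are those of that build and not of the array.

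The test was limma 3.58.1 under R 4.3.3, with lmFit and with eBayes using an intensity trend, on all 19937 genes and no brightness filter. The script was tested on simulated data. Members, lists and the rule for named genes (up to 12 largest rises and falls, the 5 brightest members and a set of regulators) were chosen with earlier results of these data known. The role groups were written after the members' values were seen, and other members were named within their role or subfamily. Alternatives varied the normalization, a brightness filter, the choice of probe set, the variance model, array weights, a replicate block and each array left out in turn.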

Additional observations from a re-analysis of the deposited data

How the results depend on the processing

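In 16 alternative settings, 27 of the 30 member calls were kept in every setting where the gene was tested, and Fbxl12, Fbxl17 and Fbxw4 lost theirs in 1 or more. Leaving out 1 array at a time gave 16 to 18 members higher, 11 to 14 lower and a member median of 0.017 to 0.053, with 2880 to 3238 of all genes higher and 3798 to 4364 lower. Restricted to genes above the median level, 7 members were lower instead of 12, because dim members were not tested, and the member median was 0.155. With arrays centred on their medians the member median was 0.109 and that of all genes 0.02 (-0.04 as deposited), with 20 members higher and 12 lower, and over all genes 3674 higher and 3749 lower, a more even split than that of the deposited values. Quantile normalization gave 20 members higher and 14 lower. With the replicate number as a block, 19 members were higher and 12 lower. Deviations of same-numbered arrays from their group means correlated at r = -0.03, 0.19 and 0.29, and not every array correlated best with its own number, so the numbers were not read as pairs. Fbxo31 and Fbxo34, which lay short of the threshold, passed in several of these settings (lowest limma adjusted p 0.0061 and 0.020). None of the 30 called members changed direction in these settings. Signal over background was not used, so no low value was taken to mean absence.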
